A study of Homo sapiens with 18 samples.

Results

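The genes that encode the proteins of the cytosolic ribosome were followed across 18 microarrays of breast cancer cells given antisense oligonucleotides (ASOs). Members were taken by symbol: RPL or RPS and a number, RPLP0, RPLP1, RPLP2 or RPSA, with pseudogenes, RPS6K kinases, RPS27L and the Y-linked RPS4 copies left out. The rule matched 63 features (transcript clusters of the array) of 55 genes, out of 14884 named genes, and the feature with the highest mean stood for each gene. Of the 55, 52 encode a ribosomal protein or a close paralog. The other 3, RPL34-DT, RPL26L1-AS1 and RPL36A-HNRNPH2, match by symbol but are a divergent, an antisense and a readthrough transcript. A filter on dim features passed 53 of the 55, and RPL10L and RPL34-DT were not tested. Of 77 core ribosomal protein genes listed, 45 had a named feature, 17 of 31 from the small subunit and 28 of 46 from the large one. RPLP0, RPLP1, RPLP2, RPSA and RPL5 were among those not analysed here.

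The study asked how loss of a long non-coding RNA alters the transcriptome: LINC01269 in SKBR3, a HER2-positive line, and AL078604.2 in MDA-MB-231 and MDA-MB-468, both triple-negative lines. The ASOs were GapmeRs, oligonucleotides with a DNA centre and modified ends that lead RNase H to cleave the bound RNA. The groups were SKBR3 with anti-LINC01269 ASO, MDA-MB-231 with anti-AL078604.2 ASO, MDA-MB-468 with anti-AL078604.2 ASO, and each of these lines with control ASO. All 6 groups, controls included, were given a GapmeR at 15 nM with the transfection reagent TransIT-BrCa for 48 h, and each had 3 Affymetrix arrays. The labels name 1 ASO for each target and do not say whether the arrays of a group came from separate cultures, so the p-values measure the spread between these arrays, which may be technical.

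The cytosolic ribosome reads mRNA in its small (40S) subunit and joins amino acids in its large (60S) subunit, whose core is ribosomal RNA. Its proteins are made under joint control, largely of translation. Their mRNAs begin with a terminal oligopyrimidine (TOP) tract, a run of C and T at the first base. The tract lets the mTOR kinase, acting through LARP1, hold the mRNA back or release it. A change in mRNA level is therefore only part of their control, and translation was not measured here. Paralogs such as RPL39L, RPL22L1 and RPL3L can take the place of the usual protein in some tissues.

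The TOP tract is a feature that these genes share and that the choice by symbol did not use. It was sought in RefSeq promoter sequences of the GRCh38.p14 assembly, which held 50 of the 55 members. RPL30, RPL39L, RPL3L, RPL8 and RPS15A had no entry. A tract, taken as a C followed by at least 4 further C or T and beginning within 5 bases of the annotated start, was found for 35 of 42 core genes (83.3%), against 25.2% of 27305 genes in the table. Exactly at the start it was found for 30 of 42 (71.4%), against 5.14%. The core genes without it were RPL17, RPL27, RPL6, RPL9, RPS15, RPS26 and RPS29. The windows show 15 bases before and 15 bases from the start of members that the results turn on, on the strand of the gene, with the tract in capitals. The first set holds genes whose arrays did not overlap between groups in a comparison, with and without a tract.
RPL14: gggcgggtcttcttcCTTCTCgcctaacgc
RPL18: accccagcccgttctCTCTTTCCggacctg
RPL39: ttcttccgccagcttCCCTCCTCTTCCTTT
RPL41: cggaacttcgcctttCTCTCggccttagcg
RPS24: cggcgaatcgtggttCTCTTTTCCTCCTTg
RPS15: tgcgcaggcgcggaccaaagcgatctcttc
These lie at chr3:40457324-40457353 on the plus strand (RPL14), chr19:48619164-48619193 on the minus strand (RPL18), chrX:119791616-119791645 on the minus strand (RPL39), chr12:56116618-56116647 on the plus strand (RPL41), chr10:78033848-78033877 on the plus strand (RPS24) and chr19:1438381-1438410 on the plus strand (RPS15). The tract of RPL39 was 19 bases long and ran past the window.

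The second set holds the pairs RPL22 and RPL22L1, and RPL26 and RPL26L1, with the paralog RPL7L1, whose partner is not shown, since a paralog may keep or lack the tract.
RPL22: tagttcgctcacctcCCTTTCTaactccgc
RPL22L1: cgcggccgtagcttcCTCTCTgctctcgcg
RPL26: aagcagcgtgtagttCTCTTCCCTTTTgcg
RPL26L1: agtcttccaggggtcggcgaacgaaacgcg
RPL7L1: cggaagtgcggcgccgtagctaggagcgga
These lie at chr1:6199581-6199610 on the minus strand (RPL22), chr3:170870181-170870210 on the minus strand (RPL22L1), chr17:8383179-8383208 on the minus strand (RPL26), chr5:172958714-172958743 on the plus strand (RPL26L1, which has 2 starts in the table) and chr6:42879601-42879630 on the plus strand (RPL7L1). Among 5 paralogs with an entry, RPL22L1 and RPL36AL held a tract. Other letters were sought on both strands of the 300-base promoters, from 250 bases before to 50 after the start. CCGGAAG, the core of ETS-factor sites, was in 13 of 42 core genes (31.0%) against 12.2% of all genes, and AAGATGGCG, the core of YY1 sites, in 3 (7.14%) against 2.14%. TATAAA was in 2 (4.76%) against 14%, and GGGCGG, the core of SP1 sites, in 22 (52.4%) against 48.3%. No promoter of a core gene had overlapping ETS and YY1 letters. A match is a description of the letters in these windows.

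Replicate arrays correlated at 0.985 to 0.992, and 0 of 153 pairs of arrays held identical values. Array medians were 4.56 to 4.63 on the log2 scale in SKBR3, 5.41 to 5.43 in MDA-MB-231 and 5.21 to 5.24 in MDA-MB-468. Line markers did not settle the labels: the epithelial gene EPCAM stood at percentiles 98.9, 99.2 and 99.3 of all features in control arrays of SKBR3, MDA-MB-231 and MDA-MB-468, and the mesenchymal gene VIM at 76.1, 76.6 and 82.1, although MDA-MB-231 is known as mesenchymal-like. Other line markers were mixed. In the same order of lines, RB1, expected to be low in MDA-MB-468, stood at 47.7, 60.3 and 24.9. The basal gene KRT5 stood at 69.6, 73.4 and 85.8, but KRT14 at 71.9, 89.1 and 79.3 and EGFR at 99, 98.2 and 98.7. The mesenchymal gene AXL stood at 80.7, 83.2 and 60.1 and ZEB1 at 43.7, 45.8 and 33.3, with SKBR3 close to MDA-MB-231. Other epithelial genes were near level between lines: CLDN7 at 96.3, 96.9 and 97.3, and ESRP1 at 98.1, 98.1 and 98. KRT18 stood at 98.7, 98.5 and 97, and KRT8 at 77.6, 74 and 75.5. ERBB2 had no named feature here. Of other SKBR3 markers, ORMDL3 stood at 87.1, 82.8 and 83.6, and GRB7 at 79.1, 81.3 and 78.8. Among markers of other cell types with a feature, CD14 was at 35.6 to 43.7, PECAM1 at 32.4 to 43.3, VWF at 42.9 to 51.9 and CD68 at 68.7 to 84.1. Line names below are those of the labels, and the targeted RNAs had no named feature, so their knockdown was not analysed here.

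No ribosomal protein gene passed the test in any comparison. With limma and Benjamini-Hochberg adjustment over 29855 features, 0 of 53 members were called after anti-LINC01269 ASO in SKBR3, where 0% of all features were called. After anti-AL078604.2 ASO, 0 of 53 were called in MDA-MB-231 (0.171% of all features) and 0 of 53 in MDA-MB-468 (0.0067%). At an unadjusted p under 0.05 there were 6 members in SKBR3 (11.3%, against 9.16% of all features), 2 in MDA-MB-231 (3.77%, against 9.35%) and 4 in MDA-MB-468 (7.55%, against 10.5%). With arrays weighted by limma's array weights, 1 member (RPL26L1-AS1) was called in MDA-MB-231, where 8.08% of all features were called, and 6 in MDA-MB-468, where 17.4% were called. Without weights, the smallest adjusted p of a member was 0.403, 0.371 and 0.297 in the same order of lines. In such bulk RNA, fewer cells of a kind and less RNA per cell cannot be told apart.

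The differences were small, and their intervals bounded them. The median log2 difference of the 53 members, ASO minus control ASO, was 0.05 in SKBR3, -0.02 in MDA-MB-231 and 0.00 in MDA-MB-468, beside 0.01, 0.01 and 0.00 over all features. Differences under 0.1 in size were found for 35, 44 and 41 of the 53 members. The 95% interval of the difference lay within 0.25 log2 on either side of 0 for 27 members in SKBR3, 37 in MDA-MB-231 and 32 in MDA-MB-468. It left out a 1.5-fold change in either direction for 50, 52 and 51 members, and the exceptions were RPL31, RPL32 and RPL26L1-AS1 in SKBR3, RPL26L1-AS1 in MDA-MB-231, and RPL31 and RPL39 in MDA-MB-468. The members' median SD within groups was 0.105 log2 in SKBR3, 0.068 in MDA-MB-231 and 0.079 in MDA-MB-468, beside 0.153, 0.129 and 0.138 over all tested features.

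**Figure D1:**
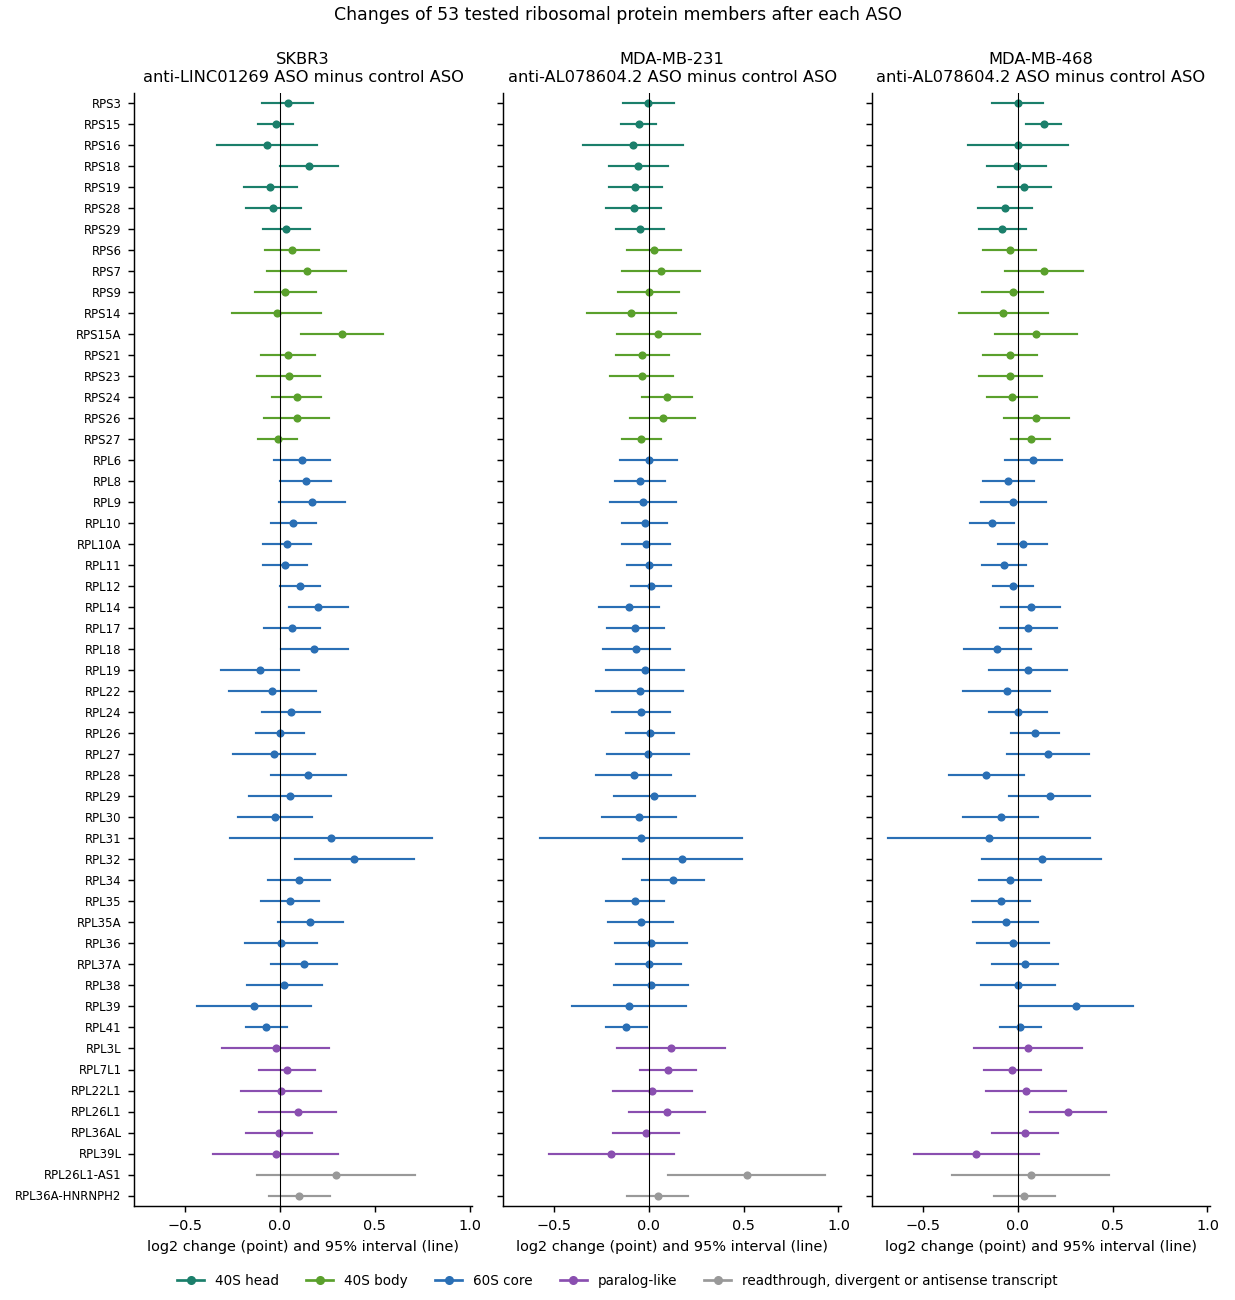
Log2 difference (ASO minus control ASO, x axis) of each of the 53 tested members (y axis, coloured by role), with its 95% interval from limma, for SKBR3, MDA-MB-231 and MDA-MB-468 from left to right. Most points lie within 0.1 of 0, and 0 members passed in any panel.

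Direction was counted as well. In SKBR3, 38 of 53 members (71.7%) were above 0, beside 54.0% of all features. In MDA-MB-231 it was 20 (37.7%, beside 53%), and in MDA-MB-468 it was 26 (49.1%, beside 49.1%). The 28 core proteins of the 60S subunit had median differences of 0.06, -0.03 and -0.01 in SKBR3, MDA-MB-231 and MDA-MB-468, with 22, 8 and 14 above 0. The 10 proteins of the 40S body had 0.06, 0.02 and -0.03 with 8, 6 and 4 above 0, and the 7 of the 40S head had -0.02, -0.05 and 0.00 with 3, 0 and 2 above 0.

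The SKBR3 median depended on single arrays. Each member's deviation from its own mean over the line's arrays was taken. The median of these deviations was 0.06, -0.06 and 0.07 log2 on the anti-LINC01269 arrays 1, 2 and 3. On the control arrays it was 0.03, -0.06 and -0.06. Anti-LINC01269 array 2 thus lay with the lower control arrays, and control array 1 lay between the other anti-LINC01269 arrays and the remaining controls. The SKBR3 median difference was 0.09 without anti-LINC01269 array 2, 0.09 without control array 1 and 0.03 without control array 2. On the MDA-MB-231 and MDA-MB-468 arrays the median deviations ran from -0.02 to 0.05.

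**Figure D2:**
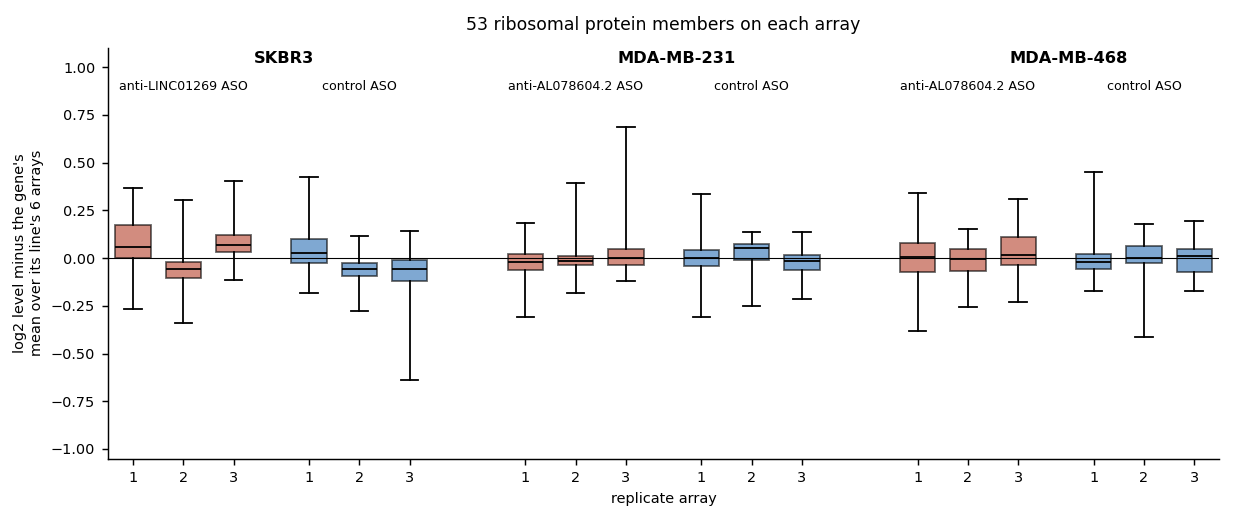
Deviation of the 53 members from each gene's mean over the 6 arrays of its line (log2, y axis) on each replicate array (x axis), ASO arrays in red left of control ASO arrays in blue. Boxes span the quartiles with the median as a line, and whiskers reach the lowest and highest member. In SKBR3 the boxes of anti-LINC01269 arrays 1 and 3 sit highest, while array 2 lies with control arrays 2 and 3.

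Complete separation of the 3 ASO arrays from the 3 control arrays was found for 7 members in SKBR3 (13.2%), where 11.5% of all features were separated. All 7 were above control (7.28% of all features were above) and 0 below (4.26% of all features). In MDA-MB-231 2 members lay above (background 9.28%) and 4 below (background 7.87%), together 11.3% against 17.2%. In MDA-MB-468 5 lay above (background 8.41%) and 2 below (background 8.50%), together 13.2% against 16.9%. Across the 3 comparisons, 36 members overlapped in all, 14 were separated in 1, 3 in 2 and 0 in 3.

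Among proteins of the 40S head, RPS15, which small-subunit precursors need to leave the nucleus, had the smallest p in MDA-MB-468. Its log2 level was 12.17, 12.14 and 12.12 after anti-AL078604.2 ASO in MDA-MB-468, against 12, 12.07 and 11.95 with control ASO. All ASO arrays lay above all control arrays, by 0.14 ± 0.0434 log2 (SE, 3 arrays per group here and below), which did not pass (limma adjusted p = 0.297). In MDA-MB-231 the same ASO gave 12.73, 12.76 and 12.72, against 12.78, 12.83 and 12.76 with control ASO. There all ASO arrays lay below all control arrays, but barely, with the highest ASO array at 12.7601 and the lowest control array at 12.7604. It counts as separated, and the difference was -0.05 ± 0.0434 (adjusted p = 0.796). In SKBR3 RPS15 read 11.59, 11.55 and 11.54 after anti-LINC01269 ASO, against 11.57, 11.51 and 11.66 with control ASO, and the groups overlapped.

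The remaining head proteins overlapped between groups in all 3 comparisons. RPS18 differed by 0.15 ± 0.0726 in SKBR3 (adjusted p = 0.545), -0.05 in MDA-MB-231 and -0.01 in MDA-MB-468, while its other feature gave 0.05, -0.07 and 0.13. RPS19, the gene most often mutated in Diamond-Blackfan anaemia, a failure of red cell production, differed by -0.05, -0.07 and 0.04 in the same order of lines. RPS3, which also has a role in DNA repair, differed by 0.04, 0.00 and 0.00. RPS16, whose tail reaches the decoding centre, differed by -0.07, -0.08 and 0.00, RPS28 by -0.03, -0.08 and -0.07, and RPS29 by 0.03, -0.04 and -0.08. None of these 6 genes differed by as much as 0.2 in any line.

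RPS15A, a protein of the 40S body, had the smallest p of all members in SKBR3. Its log2 level was 6.74, 6.49 and 6.78 after anti-LINC01269 ASO, against 6.43, 6.24 and 6.37 with control ASO. The lowest ASO array was just above the highest control array, and the difference of 0.33 ± 0.103 did not pass (adjusted p = 0.403). In MDA-MB-231 RPS15A read 7.74, 7.91 and 7.89 after anti-AL078604.2 ASO, against 7.90, 7.78 and 7.72 with control ASO, and in MDA-MB-468 it read 7.42, 7.09 and 7.36, against 7.11, 7.15 and 7.31. Both pairs of groups overlapped, with differences of 0.05 and 0.10.

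RPS24 and RPS7, which are both mutated in some families with Diamond-Blackfan anaemia, were each separated in 1 line. RPS24 read 8.61, 8.58 and 8.65 in MDA-MB-231 after anti-AL078604.2 ASO, against 8.54, 8.51 and 8.51 with control ASO, a difference of 0.10 ± 0.062 (adjusted p = 0.715). RPS7 read 6.97, 7.04 and 7.003 in MDA-MB-468 after anti-AL078604.2 ASO, against 6.83, 6.86 and 6.90 with control ASO, a difference of 0.14 ± 0.0972 (adjusted p = 0.675). In each case the ASO arrays were the higher ones and the test was not passed. In the other lines both genes overlapped, RPS24 with 0.09 in SKBR3 and -0.03 in MDA-MB-468, and RPS7 with 0.14 in SKBR3 and 0.06 in MDA-MB-231.

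The other 7 proteins of the 40S body overlapped in all 3 comparisons. RPS6, the substrate of the S6 kinases below mTOR, differed by 0.06 in SKBR3, 0.03 in MDA-MB-231 and -0.04 in MDA-MB-468. RPS26, which lies where mRNA leaves the ribosome, differed by 0.09, 0.07 and 0.10. RPS14, deleted in the 5q- syndrome of the bone marrow, differed by -0.02, -0.09 and -0.08. RPS9, RPS21, RPS23 and RPS27 differed by -0.04 to 0.07 over the 3 lines.

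RPL32 of the 60S subunit had the largest difference in SKBR3. It read 6.31, 6.25 and 5.86 after anti-LINC01269 ASO, against 5.81, 5.97 and 5.46 with control ASO. ASO array 3 fell within the control range, so the groups overlapped, and the difference was 0.39 ± 0.148 (adjusted p = 0.459). RPL32 differed by 0.18 in MDA-MB-231 and 0.13 in MDA-MB-468, where 1 ASO array of 6.57 stood above the others of 6.13 and 6.18. Without that array the MDA-MB-468 difference was -0.01.

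RPL14 was separated in 2 lines, in opposite directions. In SKBR3 it read 6.88, 6.79 and 6.90 after anti-LINC01269 ASO, against 6.68, 6.71 and 6.57 with control ASO, with all ASO arrays above (0.20 ± 0.0743, adjusted p = 0.45). In MDA-MB-231 it read 7.20, 7.18 and 7.22 after anti-AL078604.2 ASO, against 7.33, 7.36 and 7.23 with control ASO, with all ASO arrays below (-0.11 ± 0.0743, adjusted p = 0.751). These are different ASOs in different lines, and neither difference passed. In MDA-MB-468 RPL14 overlapped, with 0.07.

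RPL18 was likewise separated in 2 lines. It read 7.37, 7.05 and 7.08 in SKBR3 after anti-LINC01269 ASO, against 7.03, 6.95 and 6.98 with control ASO, with ASO array 1 well above the others and a difference of 0.18 ± 0.0832 (adjusted p = 0.534). In MDA-MB-468 it read 7.13, 7.01 and 7.19 after anti-AL078604.2 ASO, against 7.22, 7.21 and 7.23 with control ASO, all ASO arrays being lower (-0.11 ± 0.0832, adjusted p = 0.706). In MDA-MB-231 RPL18 overlapped, with -0.07.

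**Figure D3:**
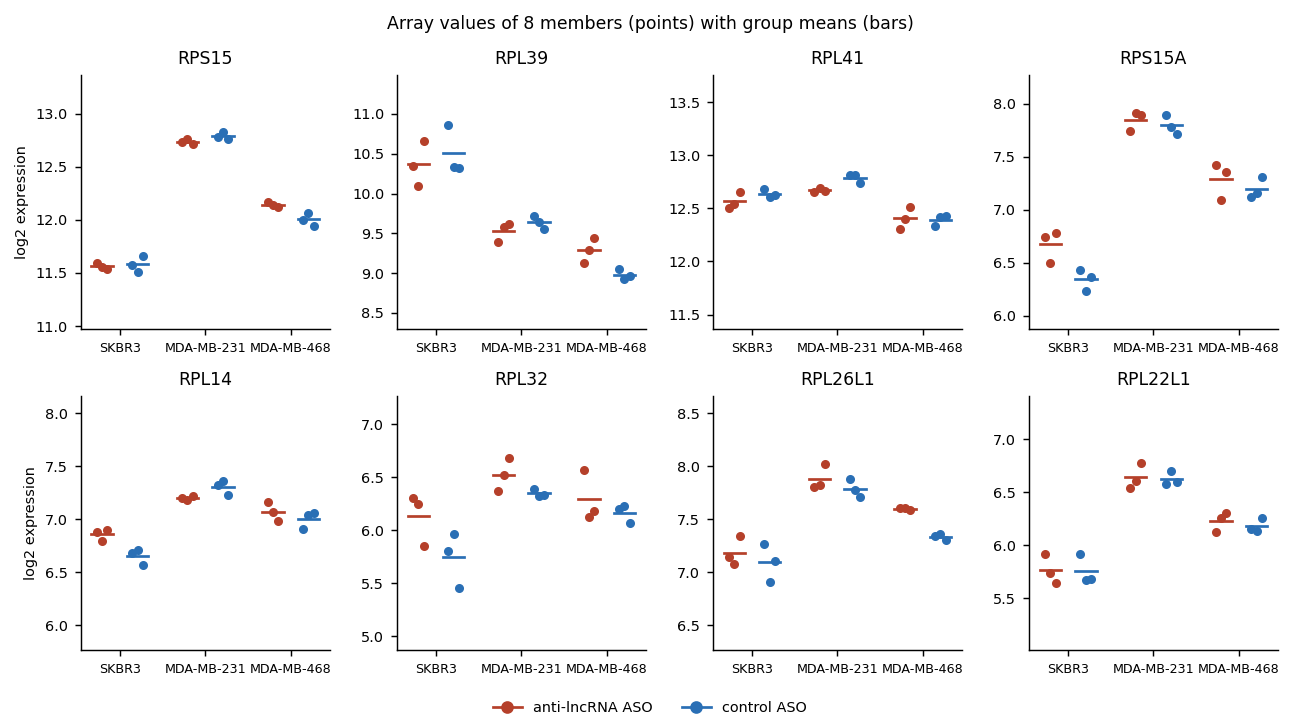
Log2 level (y axis) of 8 members on each array (points) with group means (bars), in SKBR3, MDA-MB-231 and MDA-MB-468 along the x axis, anti-lncRNA ASO in red left of control ASO in blue. RPS15, RPL39 and RPL26L1 in MDA-MB-468, RPS15A and RPL14 in SKBR3, and RPS15 (barely), RPL14 and RPL41 in MDA-MB-231 show groups that do not overlap. Levels are not comparable between genes or lines.

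RPL39, a small protein that lines the tunnel by which new peptides leave the ribosome, had the largest difference in MDA-MB-468. It read 9.13, 9.28 and 9.44 after anti-AL078604.2 ASO, against 9.05, 8.93 and 8.96 with control ASO. The ASO arrays were all higher but spread widely, and the difference of 0.31 ± 0.142 did not pass (adjusted p = 0.467). The other RPL39 feature gave 0.00 ± 0.0806 in the same comparison, so the difference was seen on 1 of 2 features. In SKBR3 the used feature differed by -0.13 and the other by -0.01, and in MDA-MB-231 they differed by -0.11 and 0.03.

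RPL41, whose product is among the smallest known human proteins and sits between the subunits, had the smallest p among members that were lower in MDA-MB-231. Its log2 level was 12.66, 12.69 and 12.66 after anti-AL078604.2 ASO, against 12.81, 12.81 and 12.74 with control ASO. The ASO arrays were tightly grouped below all controls, by -0.12 ± 0.051 (adjusted p = 0.465). The other 4 features of RPL41 also gave negative values there, from -0.10 to -0.03, and their groups overlapped. In SKBR3 the used feature gave -0.07 and 3 others gave -0.22 to -0.14, while 1 gave 0.27 ± 0.114 with ASO arrays above control (adjusted p = 0.494).

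RPL10, which joins the 60S subunit last and lies near the tRNA sites, read 11.92, 11.84 and 11.77 in MDA-MB-468 after anti-AL078604.2 ASO, against 11.88, 12.02 and 12.03 with control ASO. One ASO array reached into the control range, and the difference was -0.14 ± 0.0551 (adjusted p = 0.394). RPL10 differed by 0.07 in SKBR3 and -0.02 in MDA-MB-231. RPL11, which with RPL5 and an RNA of the large subunit can bind MDM2 and so spare p53, differed by 0.03, 0.00 and -0.07 in SKBR3, MDA-MB-231 and MDA-MB-468, and its groups overlapped in each.

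RPL31 was the least precise member. It read 6.52, 5.88 and 6.60 in SKBR3 after anti-LINC01269 ASO, against 6.47, 6.16 and 5.56 with control ASO, and 6.16, 6.33 and 6.64 in MDA-MB-468 after anti-AL078604.2 ASO, against 6.90, 6.04 and 6.65. Arrays of a group lay far apart, and the differences of 0.27 ± 0.251 and -0.15 ± 0.251 were within the spread. Its interval reached 0.53 to either side, the widest of the 53. In MDA-MB-231 it differed by -0.04.

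The remaining separated genes of the 60S core had smaller differences. In SKBR3 they were RPL8 (0.14 ± 0.0628, adjusted p = 0.534), RPL6 (0.12 ± 0.0704, 0.649) and RPL34 (0.10 ± 0.0771, 0.735), all above control. In MDA-MB-231 it was RPL17, below control (-0.07 ± 0.0704, 0.854). In MDA-MB-468 it was RPL30, below control (-0.09 ± 0.0929, 0.804). RPL34 differed by 0.13 in MDA-MB-231, where its arrays overlapped.

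Among core genes whose arrays overlapped, RPL9 differed by 0.17 and RPL35A, another gene of Diamond-Blackfan anaemia, by 0.16 in SKBR3, and RPL19 by -0.10. RPL28 differed by 0.15 in SKBR3, -0.08 in MDA-MB-231 and -0.17 in MDA-MB-468. RPL27 differed by -0.03 in SKBR3 and 0.16 in MDA-MB-468, RPL29 by 0.05 and 0.17, and RPL35 by 0.06 and -0.09. RPL22 differed by -0.04 in SKBR3, -0.05 in MDA-MB-231 and -0.06 in MDA-MB-468. The lowest adjusted p among the genes of this paragraph was 0.548 for RPL12 (0.11 ± 0.05), followed by 0.556 for RPL9, both in SKBR3. RPL10A, RPL12, RPL24, RPL36, RPL37A and RPL38 differed by -0.04 to 0.13 over the 3 lines and overlapped in each.

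The paralogs were read beside their usual partners where both had a feature. RPL26L1, a close copy of RPL26, gave 7.60, 7.61 and 7.59 in MDA-MB-468 after anti-AL078604.2 ASO, against 7.34, 7.36 and 7.31 with control ASO. Both groups were tight and well apart, by 0.26 ± 0.0947, but the test was not passed (adjusted p = 0.336). RPL26 read 9.23, 9.34 and 9.44, against 9.19, 9.29 and 9.27 with control ASO, an overlapping difference of 0.09. RPL26L1 differed by 0.10 in MDA-MB-231 and 0.09 in SKBR3, and RPL26 by 0.005 and 0.0019.

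RPL39L, which is abundant in male germ cells, differed by -0.22 ± 0.155 in MDA-MB-468, where the 2 features of RPL39 differed by 0.31 and 0.00. Its arrays read 7.38, 7.37 and 7.80 after anti-AL078604.2 ASO, against 8.004, 7.42 and 7.79 with control ASO, and overlapped. In MDA-MB-231 it read 7.66, 7.57 and 7.73 after anti-AL078604.2 ASO, against 8.09, 7.81 and 7.65 with control ASO (-0.20 ± 0.155, adjusted p = 0.782). The RPL39 features gave -0.11 and 0.03 in MDA-MB-231. With 1 array left out the RPL39L difference ran from -0.38 to -0.08 in MDA-MB-468 and from -0.30 to -0.08 in MDA-MB-231. RPL22L1, which can stand in for the RNA-binding protein RPL22, differed by 0.01, 0.02 and 0.04 in SKBR3, MDA-MB-231 and MDA-MB-468, beside -0.04, -0.05 and -0.06 for RPL22. RPL7L1, a relative of RPL7 found in precursors of the 60S subunit, read 9.20, 9.19 and 9.30 in MDA-MB-231 after anti-AL078604.2 ASO, against 9.14, 9.14 and 9.10 with control ASO. All its ASO arrays were higher, by 0.10 ± 0.0705 (adjusted p = 0.74), and it differed by 0.04 in SKBR3 and -0.03 in MDA-MB-468.

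RPL3L, known from heart and skeletal muscle, differed by -0.02, 0.12 and 0.05 in SKBR3, MDA-MB-231 and MDA-MB-468, with overlap in each. RPL36AL, a copy of RPL36A, differed by -0.01, -0.01 and 0.04. RPL10L, known from testis, was below the filter, with log2 levels of 2.87 to 3.39 in SKBR3 after anti-LINC01269 ASO, against 2.73 to 3.27 with control ASO. It read 3.89 to 3.91 in MDA-MB-231 after anti-AL078604.2 ASO, against 3.898 to 4.06 with control ASO, and 3.58 to 4.37 in MDA-MB-468, against 3.82 to 4.08.

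The transcripts that match by symbol but encode no ordinary ribosomal protein were described apart. RPL26L1-AS1 had the largest difference of all members in MDA-MB-231, with 5.75, 6.46 and 6.75 after anti-AL078604.2 ASO, against 5.75, 5.81 and 5.85 with control ASO. ASO array 1 lay with the controls and arrays 2 and 3 above them, and the difference was 0.52 ± 0.196 (adjusted p = 0.371). Without ASO array 1 it was 0.80 with an adjusted p of 0.0191, and 532 of all features were then called. Over the 6 fits with 1 array left out the difference ran from 0.30 to 0.80, and without any one of the other 5 arrays 0 features were called. Its other feature gave -0.16 ± 0.143 in the same comparison, the opposite sign. In SKBR3 its features gave 0.30 and 0.40, both with all anti-LINC01269 arrays above control (adjusted p = 0.684 and 0.437). RPL36A-HNRNPH2 differed by 0.10, 0.05 and 0.03 in SKBR3, MDA-MB-231 and MDA-MB-468, and in MDA-MB-468 its ASO arrays lay above all controls (adjusted p = 0.928). RPL34-DT, not tested, read 4.75, 4.74 and 4.83 in MDA-MB-468 after anti-AL078604.2 ASO, against 4.53, 4.57 and 4.63 with control ASO, and overlapped in the other lines.

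The response to anti-AL078604.2 ASO was compared between MDA-MB-231 and MDA-MB-468 by the difference of their changes. With limma, 0 of 53 members differed, 0% of all 29855 features were called, and at an unadjusted p under 0.05 there was 1 member (1.89%, against 4.16% of all features). That member was RPS15, with a change in MDA-MB-231 lower than that in MDA-MB-468 by -0.19 ± 0.0614 (adjusted p = 0.998). RPL39 (-0.41 ± 0.201), RPL41 (-0.13 ± 0.0721), RPL14 (-0.17 ± 0.105) and RPS27 (-0.11 ± 0.0688) came next on that side by smallest p. On the other side, in the same order of p, were RPL26L1-AS1 (0.45 ± 0.278), RPL34 (0.17 ± 0.109), RPL10 (0.12 ± 0.0779), RPS24 (0.12 ± 0.0877) and RPL7L1 (0.13 ± 0.0997), all with the same adjusted p. The 95% interval for RPL39 ran from -0.84 to 0.01, the widest among these genes apart from RPL26L1-AS1.

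Across the 53 members, the changes in MDA-MB-231 and MDA-MB-468 had a Pearson r of 0.302 and a Spearman rho of 0.363. This is a description across genes measured on the same arrays, which are not independent replicates. Above 0 in both lines were 12 members and below 0 in both 18, while 7 were above 0 in MDA-MB-231 alone and 14 in MDA-MB-468 alone. RPL11 in MDA-MB-231 and RPS3 in MDA-MB-468 were 0 to 4 decimals and enter none of these 4 counts, whereas the counts above 0 in each line use unrounded values.

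Levels in the control ASO arrays were set between lines after each array was centred on its median, as a description, since array medians differed between lines. The level in SKBR3 minus the mean of the other lines had a median of 0.11 log2 over the 53 members, with quartiles of -0.06 and 0.35. RPL39 stood apart from this range with 1.93. Its other feature gave 0.47. In MDA-MB-468 minus the mean of the other lines, RPL39 differed from the members' median of -0.20 by -1.12 and RPS23 by 0.69.

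In all, 5 members had several features, which did not always give the same line difference. For SKBR3 minus the mean of the other lines, RPL41 gave 0.05, 0.78, 0.95, 1.05 and 2.07 on its 5 features, and the one used here gave 0.78. RPL19 gave 0.34 on the used feature and -0.09 on the other, and RPS18 gave 0.00 and 0.05. The size of a line difference for RPL39 or RPL41 therefore depended on the feature. The used features of RPS18, RPS27 and RPS28 stand in the table among features of another chromosome than their gene's, and those of RPL10, RPL12, RPL31 and RPL41 among features of mixed chromosomes, whereas 99.7% of 15806 named features with a majority among their neighbours stand with their own. Whether those 7 features read the named gene was not tested. These small genes have many processed copies in the genome, and signal from such copies could not be told apart here.

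**Figure D4:**
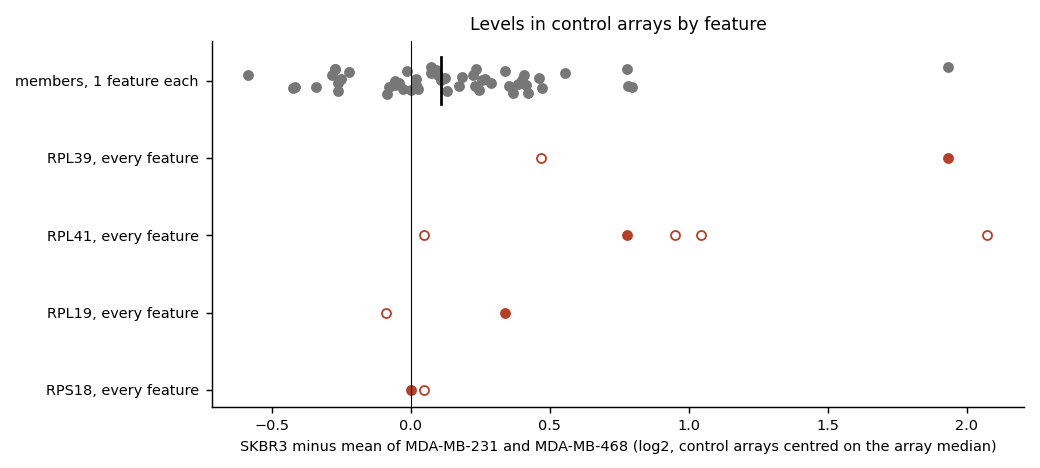
Control ASO level in SKBR3 minus the mean of MDA-MB-231 and MDA-MB-468 (log2, arrays centred on their medians, x axis) for the 53 members in grey, with their median as a bar, and below for every feature of 4 genes, the one used filled and the others open. RPL39 has 1.93 on the used feature and 0.47 on the other, and the features of RPL41 run from 0.05 to 2.07.

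Genes that build or steer ribosomes were read beside the members, as counts and medians without a test of the list. No gene of these lists passed in any line. The 33 ribosome assembly factors had median differences of 0.11 in SKBR3, 0.10 in MDA-MB-231 and 0.08 in MDA-MB-468. The medians of the ribosomal proteins were 0.05, -0.02 and 0.00. Above 0 were 30, 29 and 27 assembly factors (90.9%, 87.9% and 81.8%), beside 54%, 53% and 49.1% of all features. Of these factors, 30.3%, 3.03% and 12.1% had an unadjusted limma p under 0.05, against 9.16%, 9.35% and 10.5% of all features. Their leading genes were NOC3L, a 60S assembly factor, with 0.59 ± 0.138 in SKBR3 (adjusted p = 0.313), NOB1, the nuclease that finishes small-subunit RNA, with 0.23 in MDA-MB-231, and the nucleolar gene MPHOSPH10 with 0.28 in MDA-MB-468. SBDS, mutated in Shwachman-Diamond syndrome, and URB2 lay the other way in SKBR3, with -0.39 and -0.41.

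Genes of the mTOR pathway, which governs TOP mRNAs, had medians of -0.02, -0.12 and -0.11 over 14 genes in SKBR3, MDA-MB-231 and MDA-MB-468, where 5, 6 and 4 of them were above 0 and 0 were called. The ASO arrays of 6 of the 14 (42.9%) lay below all controls in MDA-MB-231, against 7.87% of all features, and of 5 (35.7%) in MDA-MB-468, against 8.50%. MTOR itself averaged 8.46 ± 0.457 in MDA-MB-231 after anti-AL078604.2 ASO, against 9.15 ± 0.051 with control ASO (SD), a difference of -0.70 ± 0.16 (SE) that did not pass (adjusted p = 0.0988). In MDA-MB-468 it averaged 8.44 ± 0.261 after anti-AL078604.2 ASO, against 9.14 ± 0.0073 with control ASO (-0.71 ± 0.16, adjusted p = 0.178). All ASO arrays lay below all controls in both lines, while in SKBR3 MTOR differed by -0.07 and overlapped. TSC2, an inhibitor of mTOR, differed by -0.41 in MDA-MB-231 and -0.38 in MDA-MB-468 (adjusted p = 0.127 and 0.243). SESN3 and SESN1, sestrins that restrain mTOR, differed by -0.64 and -0.53 in MDA-MB-231 (adjusted p = 0.0988 and 0.118) and by -0.35 and -0.17 in MDA-MB-468. In SKBR3, with the other ASO, SESN3 differed by -0.34 ± 0.149 and overlapped (adjusted p = 0.52). RHEB, PDCD4 and TSC1 differed there by 0.19, -0.17 and -0.07. EIF4EBP2 and PDCD4 differed by -0.14 and -0.33 in MDA-MB-468 (adjusted p = 0.297 and 0.333). The ribosomal protein medians in MDA-MB-231 and MDA-MB-468 were -0.02 and 0.00.

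The 8 other genes with TOP mRNAs, among them the elongation factor genes EEF1A1 and EEF2, were all above 0 in SKBR3, with a median of 0.14. They had -0.01 in MDA-MB-231 and -0.05 in MDA-MB-468, with 3 and 1 above 0. The 73 mitochondrial ribosomal proteins, which serve a separate ribosome, had 0.02, 0.00 and -0.01. The 5 RNA polymerase I genes had 0.19, 0.05 and -0.01, and the 8 host genes of small nucleolar RNAs 0.16, 0.05 and -0.04. FAU, whose product carries the small-subunit protein RPS30, differed by 0.10, 0.04 and 0.07, and the kinase-like gene RPS6KL1 by 0.06, 0.32 and -0.07.

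Ribosomal protein pseudogenes were left out by the choice by symbol. The 15 tested of 25 had medians of 0.05, -0.04 and -0.06 in SKBR3, MDA-MB-231 and MDA-MB-468. RPL13AP6 differed by 0.69 ± 0.228 (adjusted p = 0.424) and RPL13P5 by -0.40 ± 0.131 (adjusted p = 0.421) in SKBR3, and neither passed. RPL13AP6 was dim and its SKBR3 groups overlapped, with means of 4.88 ± 0.398 after anti-LINC01269 ASO and 4.19 ± 0.523 with control ASO (SD). Its mean lay below the array medians in all groups but SKBR3 with anti-LINC01269 ASO. The filter may thus have passed it only through the group where it was high. Of 11 small nucleolar RNA genes inside members, 0 had a named feature.

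**Figure D5:**
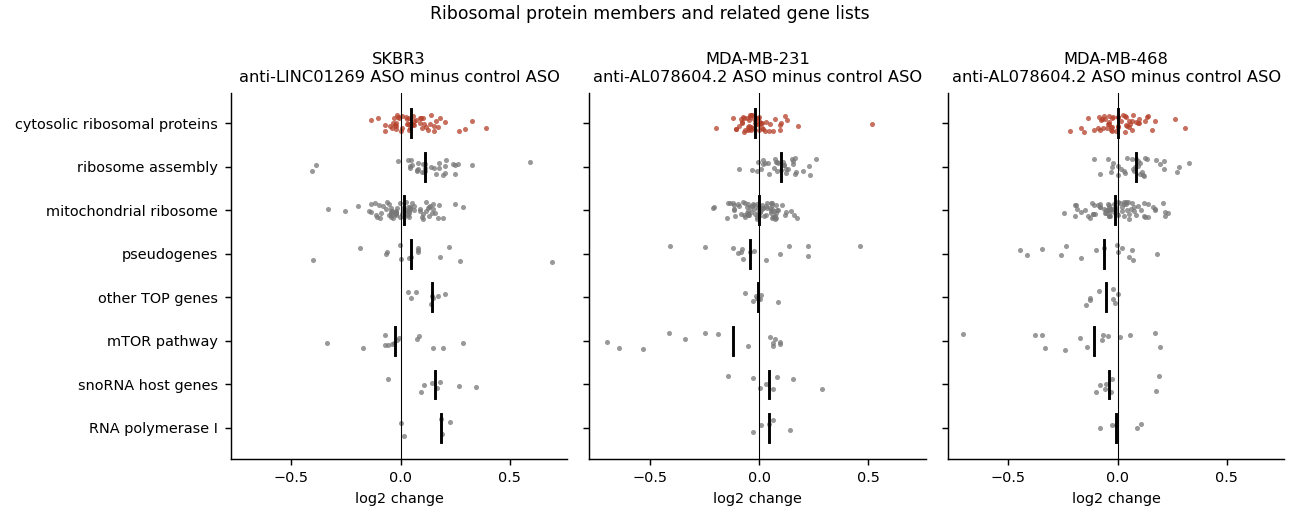
Log2 difference (ASO minus control ASO, x axis) of the tested ribosomal protein members (red) and of genes on related lists (grey), 1 point per gene with the list median as a bar, for SKBR3, MDA-MB-231 and MDA-MB-468. Medians of the members are 0.05, -0.02 and 0.00, and those of ribosome assembly factors 0.11, 0.10 and 0.08.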

How the data were processed

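Per the submitters' processing notes, Transcriptome Analysis Console was used by the authors to make the deposited values. Its version, its normalization and the genome build are not given in the sources used here. Values in the table lie between 0.41 and 13.84, and this range is the basis for taking the deposited numbers as log2 levels, since no label or header names a scale. Of 53617 features, 16098 had 1 symbol in the platform annotation, 0 had several and 37519 had none, and these are unnamed here. Control probes were not marked and stayed in.

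A feature entered the test if, in 1 or more of the 6 groups, its mean was above the median feature of that group. The 18 arrays were fitted together, with a mean for each group, by limma 3.58.1 in R 4.3.3, with an intensity trend (12 residual and 4.33 prior degrees of freedom), as a two-sided test with Benjamini-Hochberg adjustment across 29855 features and a threshold of 0.05. An array gives no molecule count, so the number of arrays limits precision.

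The members, lists and tests were chosen with earlier results of these data known. Named by rule were members that pass, the 8 largest differences in each direction, paralogs with their parents, RPL11, up to 5 genes per direction for the difference between lines, and up to 4 genes by smallest p from each list. The other members, second features and genes singled out by their arrays were named after their values were seen. The lists were 10: mitochondrial ribosomal proteins, pseudogenes, ubiquitin fusions, TOP translation factors, assembly factors, RNA polymerase I, the mTOR pathway, RPS6K kinases, and small nucleolar RNA hosts and genes. Alternatives covered the filter, the normalization, centring, array weights, the intensity trend, the arrays fitted, the feature per gene, the members, replicate numbers as a block, and leaving out each array.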

Additional observations from a re-analysis of the deposited data

How the results depend on the processing

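Under 17 alternatives per line, the median difference of ribosomal protein genes stayed within 0.03 to 0.09 in SKBR3, -0.04 to -0.01 in MDA-MB-231 and -0.01 to 0.01 in MDA-MB-468. The SKBR3 median was 0.03 both with each array centred on its own median and with quantile normalization. With 1 array left out, 0 to 1 members were called in MDA-MB-231 (RPL26L1-AS1, without anti-AL078604.2 ASO replicate 1), and 0 in SKBR3, in MDA-MB-468 and for the difference between lines. With array weights, 1 member was called in MDA-MB-231 (RPL26L1-AS1, 8.08% of all features called) and 6 in MDA-MB-468 (11.3% of members, 17.4% of all features): RPL26L1, RPL39 and RPS15 higher, RPL10, RPL18 and RPS29 lower. Weights in MDA-MB-468 ran from 0.387 to 9.62, and the cause of the added calls was not tested. With the replicate number as a block, 0 members were called. A correlation taken for same-numbered arrays ran from -0.124 to 0.101 within lines. It is not one of array levels, since replicate arrays correlated at 0.985 to 0.992. These values gave no sign that the numbers pair the arrays, and the labels do not say.

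Of 930 values for 58 named results, 8 passed the threshold only under an alternative (those above), and 15 changed sign. With array weights RPL22 was 0.0682 and RPL27 0.0308 in SKBR3, and RPL32 was -0.022 in MDA-MB-468. With 1 array left out, the SKBR3 differences ran from -0.2137 to 0.0041 for RPL19, -0.1656 to 0.0823 for RPL22, -0.1051 to 0.0738 for RPL27, -0.2803 to 0.0454 for RPL39, -0.1078 to 0.0091 for RPS19 and -0.0657 to 0.0044 for RPS28. In MDA-MB-468 they ran from -0.3978 to 0.0339 for RPL31 and -0.0118 to 0.211 for RPL32. The restriction to features whose table neighbours lie on the gene's chromosome was chosen after seeing the data. Only 3 arrays per group limit the precision.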
